A study of Saccharomyces cerevisiae with 6 samples.

Results

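The 9 genes described here are the 8 basic helix-loop-helix (bHLH) factor genes of budding yeast, INO2, INO4, PHO4, CBF1, TYE7, RTG1, RTG3 and HMS1, and OPI1, the gene of the repressor of Ino2. They were chosen by gene symbol as a family, with earlier results of these data known. All 9 were found among the 6932 entries of the table, each as a single entry that overlaps no other, and all 9 were among the 6153 entries compared. RNA was sequenced from Saccharomyces cerevisiae cultures grown with acetate, moved to potassium acetate to sporulate, and sampled at 4 h in meiosis. The 6 samples were 2 each of wild type (WT), bas1 mutant and ino4 mutant cells, where Bas1 is a Myb-related activator and Ino4 is itself one of the bHLH factors. The sources used here do not say how the mutations were made, which strain was used or whether the samples of a genotype were separate cultures. The authors' table holds 1 FPKM value (fragments per kilobase of gene, scaled to the mapped fragments) per genotype, so a difference has no replicate check, no spread and no test, the read depth is unknown, and "higher" and "lower" below compare those combined values only.

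Proteins of the bHLH family bind DNA as pairs, with the basic region of each partner reading a part of a short palindrome-like word called the E-box, CANNTG. Ino2 and Ino4 bind together at genes of phospholipid synthesis, where Ino2 carries the activating regions and Opi1 represses through Ino2 when inositol is plentiful. Pho4 acts with Pho2 on phosphate starvation genes, Cbf1 binds centromeres and, with Met4 and Met28, sulfur genes, Tye7 supports expression of glycolytic genes, and Rtg1 with Rtg3 signals the state of mitochondria to the nucleus. HMS1 was found through its effect on filamentous growth when in excess.

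The sequences below are the E-box words found in front of INO2, INO4 and CBF1, beside those of INO1, the best known target of Ino2 and Ino4. They are word matches, and binding was not examined here. They were read from the RefSeq genome, build R64, of the reference strain S288C, in which all 9 genes have the same length as in the table. Each is written 5′ to 3′ along the strand of its gene, and capitals mark the word.
INO2, chrIV:699595-699622, minus strand: gtacaacacaCATGTGAAtttttttcag
INO4, chrXV:111992-112019, minus strand: aaacaaaataTTCACATGtttttctcac
INO1, chrX:136159-136186, minus strand: ctaaatgcggCATGTGAAaagtattgtc
INO1, chrX:136096-136123, minus strand: acttatttaaTTCACATGgagcagagaa
CBF1, chrX:548581-548606, plus strand: aacaattatcCACGTGcttatcacgt

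The INO2 and INO4 words are CATGTGAA, the start of the inositol-sensitive element to which Ino2 and Ino4 bind, on the gene's strand in front of INO2 and on the other strand in front of INO4. They begin 144 and 123 bases before the start codon. Windows of 250 bases before to 50 bases after the start codon were searched on both strands, and CATGTGAA was found in 42 of 6001 promoters, or 0.700%, among them 2 of the 9 genes. This 8-letter word was chosen after the matches were seen. The full 10-letter element, CATGTG directly followed by AAAT, was in 1 promoter of 6001 and in front of none of the 9. Its 6-letter core CATGTG, which the longer words contain, was in 416 promoters (6.93%) and in front of the same INO2 and INO4. In front of INO2 the core occurs in overlapping form on both strands, so its 2 matches share letters. The palindrome CACGTG, known to be bound by Pho4, Cbf1 and Tye7, was in 175 promoters (2.92%) and, of the 9 genes, only in front of CBF1, 168 bases before the start codon. GTCAC, the core of the site of Rtg1 and Rtg3, was in 1587 promoters (26.4%) and lay in front of RTG1 and HMS1. TGACTC, the core bound by Bas1 and Gcn4, was in 479 promoters (7.98%) and in front of none of the 9. GGCGGC, the core bound by Ume6, was in 308 promoters (5.13%) and was found in front of INO4. The windows of OPI1, PHO4, TYE7 and RTG3 held none of these words. A match is a description of the reference sequence and not a bound site.

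INO4 (YOL108C, sacCer2 chromosome XV, 111431 to 111886) checks the labels. It had an FPKM of 307 in WT, against 271 in bas1 and 0.339 in ino4, which is 0.110% of WT. Its neighbours did not share the drop. YOL107W, which starts on the other side of the same intergenic stretch, had 98.5, 97.9 and 102, and ZEO1 had 11065, 9170 and 9683. SUF1, a transfer RNA gene between ZEO1 and INO4, is listed at 0 throughout. BAS1 had 19.4 in WT, against 0.00985 in bas1 and 21.1 in ino4. The median FPKM of the entries compared was 53.5 in WT, against 53.6 in bas1 and 53.6 in ino4. Markers of early meiosis were present in every genotype. Of these 9, 8 were higher than WT in bas1 (median difference 0.15) and 5 in ino4 (0.07). Over all entries, 50.6% were higher in bas1 and 49.4% in ino4, with a median size of difference of 0.21 and 0.16. The summed FPKM of the 9 markers, 18323 in WT, against 19932 in bas1 and 17376 in ino4, was led by IME1. Markers of middle sporulation differed more, with all 10 higher in bas1 (median 0.89), all 10 lower in ino4 (-0.63) and sums of 3286, 5658 and 1755. Of 3 mitotic G1 markers, CLN1 and CTS1 were 2-fold lower in bas1 and CLN2 was at 0.14, and the sums of 449, 221 and 463 were mostly CTS1, whose entry shares its position. The 6 haploid mating markers summed to 468, 384 and 825, led by the short genes MFA1 and MFA2. Against those sums, 4 of the 6 were higher in bas1 (median 0.17) and 4 were lower in ino4 (-0.07). No marker was at 0. In a culture, fewer cells at a stage and less RNA per cell cannot be told apart, and the part of these shifts in the values below was not tested.

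In WT the 9 genes spanned a 7.43-fold range in FPKM, a scale that is per length and so allows genes to be ordered. INO4 was highest with 307, above 88.1% of the entries compared, and RTG1 followed with 230. RTG3 (107) and TYE7 (100.3) came next, then OPI1 (78.8). HMS1 (54.1), PHO4 (52.1), CBF1 (44.2) and INO2 (41.4) lay close together near the middle of all entries, with INO2 above 41.6% of them. With no spread given, neighbours in this order cannot be told apart. RTG1 was highest in both mutants, with 289 in bas1 and 248 in ino4. INO2 was lowest of the 9 in WT and in bas1, and only INO4 itself was lower than INO2 in ino4.

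**Figure D1:**
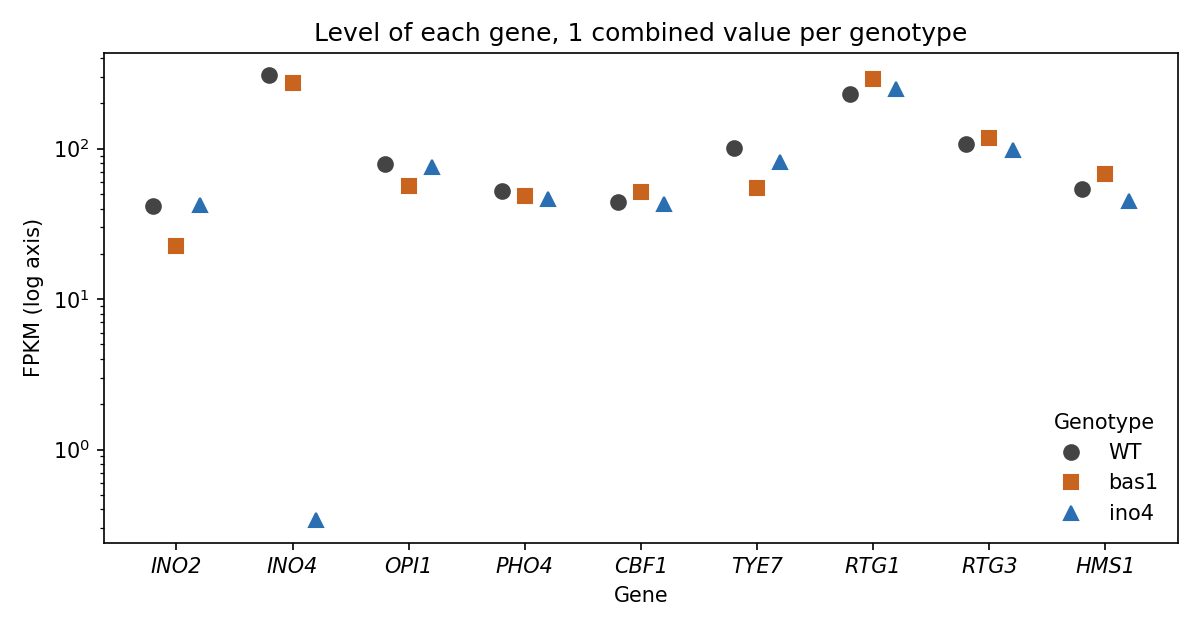
FPKM (log axis) of each of the 9 genes, with 1 point for the combined value of each genotype and no error bars because no spread is given. INO4 drops from 307 in WT to 0.339 in ino4, while INO2 and TYE7 are lowest in bas1, at 22.6 and 54.5.

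Of the regulators of phospholipid synthesis, INO2 was the only one past 1.5-fold in bas1. INO2 (YDR123C, sacCer2 chromosome IV, 698552 to 699466) had an FPKM of 41.4 in WT, against 22.6 in bas1 and 42.1 in ino4. It was therefore 1.83-fold lower in bas1 than in WT and within 1.02-fold of WT in ino4. Its log2(FPKM + 1) difference, the scale used for all differences here, was -0.84 in bas1 and 0.02 in ino4. Of 2559 entries within 2-fold of the WT level of INO2, 2.42% were as low or lower in bas1. The gene of the repressor, OPI1 (YHL020C, sacCer2 chromosome VIII, 66239 to 67453), had 78.8 in WT, against 56.9 in bas1 and 75.9 in ino4. OPI1 was 1.39-fold lower in bas1, a difference of -0.46, which 9.77% of entries at its level reached or passed in that direction, and it differed by -0.05 in ino4. INO4 in bas1 was 1.13-fold below WT, a difference of -0.18, where 31.1% of entries near its level were as low. All 3 values of this circuit were thus below WT in bas1, but 58.7% of entries near the level of INO4 and 16.3% near that of OPI1 were as far from WT. Per length, there were 7.43 INO4 transcripts for each INO2 transcript in WT and 12.0 in bas1. The ratio of OPI1 to INO2 was 1.90 in WT, against 2.51 in bas1 and 1.80 in ino4. In ino4, where INO4 RNA was nearly absent, neither its partner gene nor the repressor gene lay far from WT.

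TYE7 (YOR344C, sacCer2 chromosome XV, 977191 to 978066), whose product supports expression of glycolytic genes, was the other of the 9 past 1.5-fold in bas1. It had an FPKM of 100.3 in WT, against 54.5 in bas1 and 81.2 in ino4. This is 1.84-fold lower in bas1, a difference of -0.87, and 1.24-fold lower in ino4, a difference of -0.30. Among 2130 entries near its WT level, 2.30% were as low in bas1 and 9.67% in ino4. TYE7 had the largest difference in size from WT of the 9 genes in bas1, and in ino4 the largest apart from INO4. Both comparisons use the same WT value.

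PHO4 (YFR034C, sacCer2 chromosome VI, 225008 to 225946) stayed near WT. Its FPKM was 52.1 in WT, against 48.4 in bas1 and 46.5 in ino4, with differences of -0.10 and -0.16. CBF1 (YJR060W, sacCer2 chromosome X, 548752 to 549807) had 44.2, 51.9 and 42.7, which is 1.18-fold higher in bas1 (0.23) and 1.03-fold lower in ino4 (-0.05). In the order of levels, CBF1 was below PHO4 in WT and ino4 and above it in bas1, with CBF1 to PHO4 ratios of 0.848, 1.07 and 0.919.

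The genes of the retrograde pair were not past 1.5-fold in either mutant. RTG1 (YOL067C, sacCer2 chromosome XV, 201985 to 202518) was at an FPKM of 230 in WT, against 289 in bas1 and 248 in ino4, differences of 0.32 and 0.11. RTG3 (YBL103C, sacCer2 chromosome II, 22075 to 23535) had 107, 118 and 98.0, differences of 0.14 and -0.13. Of entries near their levels, 32.4% for RTG1 and 63.8% for RTG3 lay as far from WT in bas1. RTG1 was 2.15 times as abundant per length as RTG3 in WT, 2.44 times in bas1 and 2.53 times in ino4. HMS1 (YOR032C, sacCer2 chromosome XV, 389771 to 391075) had 54.1 in WT, against 67.3 in bas1 and 44.8 in ino4. It thus lay above WT in bas1 (0.31) and below WT in ino4 (-0.27), and the mutants were 1.50-fold apart. Among 2569 entries near its level, 14.9% were as high in bas1 and 12.5% as low in ino4.

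Counted by a 2-fold rule, a log2(FPKM + 1) difference of at least 1 in size, 0 of the 9 genes were apart in bas1 against WT, where 3.32% of the entries compared were. Relaxed to 1.5-fold, the count was 2 of 9, INO2 and TYE7, both lower, against 11.3% of entries. In ino4 against WT the count was 1 of 9 by either rule, INO4, the targeted gene, against 2.44% of entries at 2-fold and 6.94% at 1.5-fold. Between the mutants INO4 was again the only gene past 2-fold, where 5.56% of entries were. At 1.5-fold INO2 joined it, 1.86-fold lower in bas1 than in ino4, against 15.0% of entries. HMS1 at 0.58 and TYE7 at -0.57 were just short of the 1.5-fold rule in that comparison, and with a pseudocount of 0.1 HMS1 passed it at 0.59, for a count of 3. With so few genes, none of these counts sets the family apart from other entries. Without INO4, the median size of difference over the other 8 genes was 0.32 in bas1 and 0.12 in ino4, beside 0.21 and 0.16 over all entries. In bas1, 4 of these 8 were higher than WT and 4 lower, beside 50.6% of all entries higher. In ino4 2 were higher and 6 lower, beside 49.4% of all entries higher. These 8 genes are too few to show a lean, and both counts use the same WT values.

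**Figure D2:**
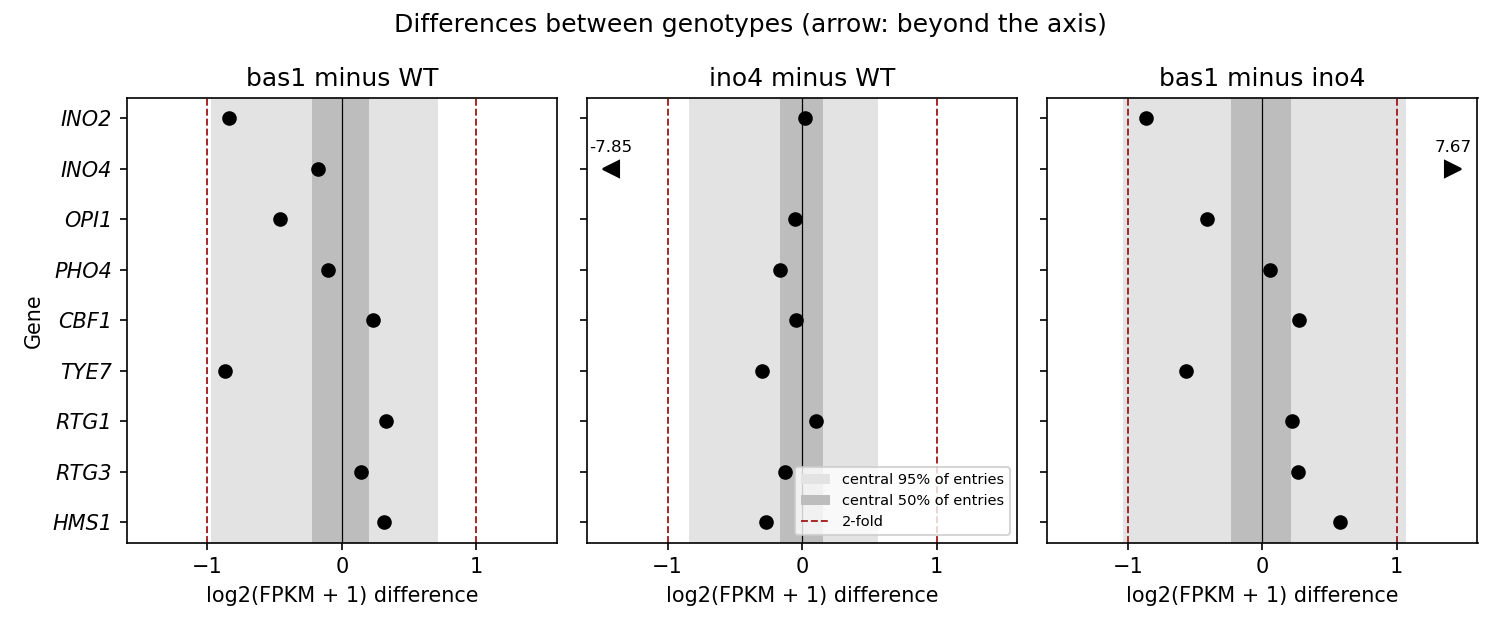
Difference in log2(FPKM + 1) for each of the 9 genes in bas1 against WT, ino4 against WT and bas1 against ino4, with grey bands for the central 50% and 95% of the 6153 entries and dashed lines at 2-fold. INO4 lies beyond the axis at -7.85 in ino4 and 7.67 between the mutants, and every other point is inside the 2-fold lines, with INO2 (-0.84) and TYE7 (-0.87) nearest to them in bas1.

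Entries whose pattern was most like that of a member were found by distance over the 2 differences from WT, among 4670 single-gene entries with an FPKM of at least 10 in every genotype and no shared position. Nearest to INO2 were DBR1 (distance 0.03), YDR381C-A (0.04) and TSL1 (0.04), and 18 entries lay within 0.1 of it. TSL1, which encodes a subunit of the trehalose synthase complex, had an FPKM of 121 in WT, against 65.3 in bas1 and 123 in ino4. Nearest to OPI1 were PPM1, MED11 and CWP1, at 0.01 to 0.02, among 87 entries within 0.1. Nearest to TYE7 were PIR3 (0.02), HXT5 (0.03) and RMP1 (0.04), among 8 within 0.1. HXT5, a hexose transporter gene, had 1318 in WT, against 722 in bas1 and 1094 in ino4. These likenesses rest on 3 combined values each.

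The textbook targets of the factors were set beside the genes of the factors themselves. The target and partner lists were drawn up with earlier results of these data known, so their counts are a description. Over all entries compared, the median difference was 0.0051 in bas1 and -0.0031 in ino4. Of these 6153 entries, 144 were at least 2-fold lower in bas1 and 108 in ino4. Below WT by any size were 3041 entries in bas1 and 3111 in ino4.

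For Tye7, all 11 glycolytic genes listed as its targets were at least 2-fold lower in bas1, with differences of -2.44 to -1.47 and a median of -1.72. None of the 11 was 2-fold apart in ino4, where the median was -0.07. The pyruvate kinase gene CDC19 had an FPKM of 842 in WT, against 237 in bas1 and 869 in ino4, and the phosphoglucose isomerase gene PGI1 had 251, 76.0 and 268. Both were named after their values were seen. TYE7 itself was thus lower in bas1 by less than every gene of this list, on the same log2 scale. ENO1 with ENO2 and TDH2 with TDH3 are close paralogs that can share reads, and the entries of GPM1, PGK1 and CDC19 each share their position with a further entry.

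For Ino2 and Ino4, 8 of 15 target genes were at least 2-fold lower in ino4, all 15 were below WT, and the median was -1.04. PSD1, which is among the 15 but not among the 8, has an entry that shares its position with a further entry. INO1 had an FPKM of 551 in WT, against 434 in bas1 and 56.6 in ino4. OPI3, whose product makes phosphatidylcholine, had 1496, 1051 and 252. In bas1, where INO2 was 1.83-fold lower, 0 of the 15 were 2-fold apart, 12 were below WT and the median was -0.22. With 3.32% of all entries 2-fold apart in bas1, a count of 0 is no result about 15 genes. The acetyl-CoA carboxylase gene ACC1 was the lowest there, with 107 in WT, against 58.1 in bas1 and 51.5 in ino4. The promoter word seen in front of INO2 and INO4 was also followed across the table. Of 41 compared entries with CATGTGAA in the window, 6 were at least 2-fold lower in ino4, or 14.6%, beside 68 of 5569 (1.22%) over all entries with a promoter. These 6 were INO4 itself, INO1, ITR1, CDS1, GAT4 and ARG4, of which ITR1, CDS1, GAT4 and ARG4 were named after their values were seen. INO1, ITR1 and CDS1 are also on the target list. The word was chosen after its matches were seen, INO1 is one of the promoters shown for it, and INO4 is the targeted gene. The 14.6% is therefore a description and no test. In 500 bases before the start codon, 9 of 80 entries with the word (11.25%) were 2-fold lower in ino4. The median difference in ino4 was -0.18 in the shorter window and -0.04 in the longer one. INO2, with the same word, was at 0.02, and YOL107W, whose window holds the very word that lies in front of INO4, was at 0.05. For CACGTG, 0 of 164 entries were 2-fold lower in ino4 and 5 (3.05%) in bas1, beside 112 (2.01%) over all entries with a promoter. In 500 bases before the start codon, a window chosen after seeing the data, 343 entries held CACGTG. Of these, 17 (4.96%) were 2-fold lower in bas1 and 3 (0.875%) in ino4, beside 2.01% and 1.22% over all entries with a promoter.

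PHO4 was near WT in both mutants, but its targets were not all near WT. In bas1, 5 of 14 were at least 2-fold lower, 13 were below WT and the median was -0.77. In ino4, 1 of 14 was 2-fold lower, 12 were below WT and the median was -0.29, with both comparisons using the same WT values. SPL2, which restrains low-affinity phosphate uptake, had an FPKM of 201 in WT, against 42.6 in bas1 and 135 in ino4. The phosphate transporter gene PHO84 had 385, 118 and 206. PHO11 and PHO12 are nearly identical copies whose reads can be split between them. Both were low, with an FPKM of 4.91 and 0.975 in WT, against 1.80 and 0.149 in bas1. PHO11 is among the 5. With a pseudocount of 5 the median of this list in bas1 was -0.525.

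The sulfur genes tied to Cbf1 had medians of 0.10 in bas1 and 0.27 in ino4. Of 11, only MET17, whose entry shares its position with a further entry, was 2-fold apart, with an FPKM of 43.7 in WT, against 20.6 in bas1 and 57.9 in ino4, while MET16 had 48.8, 76.2 and 69.1. The 6 targets of Rtg1 and Rtg3, which include the peroxisomal citrate synthase gene CIT2, stayed within 0.26 of WT in both mutants, with medians of 0.06 and 0.20. CIT2, named after its values were seen, had 2355, 2358 and 2558.

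**Figure D3:**
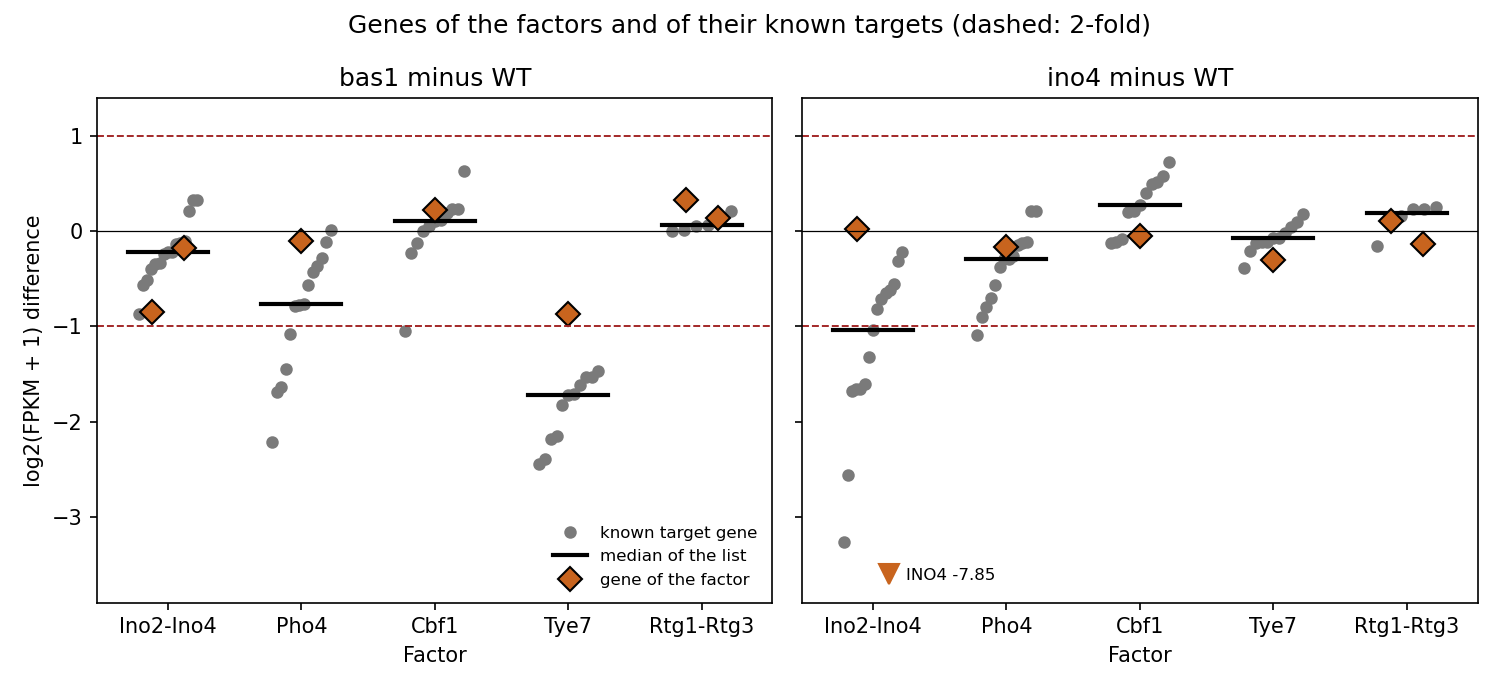
Difference in log2(FPKM + 1) from WT in bas1 and in ino4 for the known targets of each factor (grey points, with a bar at the median) and for the gene of the factor itself (diamonds, INO2 to the left of INO4 and RTG1 to the left of RTG3), with dashed lines at 2-fold. The 11 targets of Tye7 lie between -2.44 and -1.47 in bas1 and TYE7 at -0.87, and INO4 lies beyond the axis at -7.85 in ino4.

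None of the 23 partner genes compared was 2-fold apart from WT in either mutant, beside 3.32% of all entries in bas1 and 2.44% in ino4, shares that make a count of 0 no result about so few genes. PHO81, which encodes the inhibitor of the Pho80-Pho85 kinase that restrains Pho4, was furthest, with an FPKM of 61.0 in WT, against 37.2 in bas1 and 45.5 in ino4. PHO2, the partner of Pho4 and of Bas1, had 112, 109.6 and 109. UME6, a repressor that acts with Sin3 and Rpd3 at INO1, had 139 in WT, against 100.5 in bas1 and 122 in ino4. SCS2, which holds Opi1 at the endoplasmic reticulum and whose entry shares its position, had 630, 722 and 768. MET31, whose product recruits Met4 to sulfur genes as Cbf1 does, had 41.5, 30.4 and 40.1. The gene of Gcr1, the main activator of glycolytic genes, had 22.4, 18.5 and 20.4. GCR2 is merged with a neighbour in the table and was not compared.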

How the data were processed

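RNA sequencing of 6 samples, 2 per genotype, is represented by a table with 1 column per genotype. Its FPKM values were deposited by the authors, per the file headers, and STAR, Cufflinks and the build sacCer2 are named, per the submitters' processing notes. Versions, strand use in counting, read depth and the way samples were combined are stated in no source used here, so no interval or floor is given. Identifiers, symbols and positions were taken from the table.

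Entries were compared if their highest FPKM reached 1 and none of the 3 values was 0. Differences are on the log2(FPKM + 1) scale (pseudocount 1) without scaling between genotypes, which understates changes of low genes. Fold values are plain FPKM ratios. With 1 value per genotype the planned limma test could not be fitted and the planned description was used. The fold rule, the word search and the scalings were tried on simulated data with planted changes, words or scale factors. Other steps were not simulated. Alternatives were other pseudocounts, scalings, filters, fold rules and promoter windows.

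Promoter words were searched with Python 3.11.15 in the R64 genome by gene name, since that build differs from the build of the table. No sacCer2 position was used with it. Of 109 list genes, 108 had an entry of their own, found by symbol or synonym. The entries of PSD1, MET2, MET28, IDH2 and STE3 on these lists share their position with a further entry, as do those marked in the text. Named genes were the 9 members, BAS1, the genes beside INO4, partner genes and markers. The 3 entries nearest in pattern to INO2, OPI1 and TYE7 and some of the largest differences of the target lists were also named. For the lists of Tye7 and of Rtg1 and Rtg3 the genes with the largest differences were not given with their FPKM. Some genes are named only for a paralog or a shared position, and others are marked in the text as named with their values known. The members and lists were chosen with earlier results of these data known.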

Additional observations from a re-analysis of the deposited data

How the results depend on the processing

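No paired analysis was possible because the table holds 1 value per genotype and carries no replicate numbers, and leaving out replicates or a fit with a replicate block was not run for the same reason. Under the 1.5-fold rule in place of 2-fold, 2 of the 9 genes were apart in bas1 against WT and 2 between the mutants. The number of the 9 genes at least 2-fold apart was the same in each comparison under pseudocounts of 0.1 and 5, median scaling, quantile normalization, a trimmed mean of log ratios, no filter, and entries that share no position. None of the 27 differences of the 9 genes changed sign under the 3 scalings, while a pseudocount cannot turn a sign and the changes of filter leave these genes' values as they are. At 1.5-fold the count between the mutants was 3 with a pseudocount of 0.1, with HMS1 added, and 2 under the others. INO2 in bas1 ranged from -0.87 to -0.75, TYE7 from -0.88 to -0.82, and INO4 in ino4 from -9.45 to -5.87. The count of all entries 2-fold apart went from 204 to 124 in bas1 and from 150 to 72 in ino4 with a pseudocount of 5, and to 97 in ino4 among entries that share no position. With a pseudocount of 5 the median of the targets of Ino2 and Ino4 in ino4 was -0.98. In 500 bases before the start codon, a window chosen after seeing the data, 6 of the 9 genes held GTCAC in place of 2, and 1 held TGACTC in place of 0. That window also moved the share of entries with CACGTG that were 2-fold lower in bas1 from 3.05% to 4.96%, and the cause was not tested. The order of the levels cannot change under quantile normalization by its construction. The unknown depth and the lack of a value per sample limit every difference here.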
